A study of Homo sapiens with 6 samples.

Results

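The SR splicing factors are 10 genes of the serine/arginine-rich family, SRSF1 to SRSF7 and SRSF9 to SRSF11, taken by name from a table of 18268 gene rows. Each had a single row that joins no other gene name, and all 10 passed the filter on low values, which kept 9694 rows whose mean over all 6 libraries reached 1 FPKM. RNA was sequenced from MIA PaCa-2, an established human pancreatic carcinoma line labelled as epithelial. In 3 libraries the cells overexpressed LINC00901, a long noncoding RNA, and in 3 they carried the pCDH vector as control. All cells grew in DMEM with fetal bovine and horse serum. FPKM is a fragment count scaled to gene length and library total, so levels can be set side by side between genes. No text used here says whether replicates were separate cultures, so standard errors rest only on spread between these libraries, which may be technical.

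SR proteins bind exonic enhancer sequences in pre-mRNA through RNA recognition motifs and recruit spliceosome parts through a tail of arginine and serine repeats. Kinases of the SRPK and CLK families phosphorylate that tail, which sets where the protein sits in the cell and how it acts. Several members also help to export mRNA, and many limit their own level: excess protein promotes inclusion of a "poison" exon or another splicing choice that sends the transcript to nonsense-mediated decay. A gene-level FPKM adds up productive and decay-bound transcripts, so it does not give the amount of protein.

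The members were chosen by name, but with their FPKM in the overexpression and vector libraries known, so the values that chose them are those of this contrast. Their differences are therefore given as a description, with standard errors and without p-values. The standard errors are those of limma, which draws the variance of each gene towards a trend on intensity over all tested genes. On log2(FPKM + 0.5), 6 of the 10 lay below 0 and 4 above 0 for overexpression minus vector, with a median of -0.49, against 0.27 over all 9694 tested genes. SRSF1, SRSF3 and SRSF10 were lower in the overexpression libraries by more than 2-fold, and SRSF2 was higher by more than 2-fold. Folds here and below are ratios of mean FPKM, so they do not convert exactly into the log2 differences. Among all tested genes, 4.42% were at least 2-fold lower and 13.5% at least 2-fold higher. In limma the call rule, a Benjamini-Hochberg adjusted p under 0.05 over all tested genes, took 6 members as lower and 3 as higher. The same rule took 11.9% of all tested genes as lower and 37.4% as higher, 49.2% in all. Nothing is read from the member counts, because this contrast was known when the genes were chosen.

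The groups differed in scale, and this bears on the small differences. FPKM summed to 127768 to 128538 in the overexpression libraries and to 87162 to 88738 in the vector libraries, and the median gene was higher by 0.27 log2. Number of reads per library is unknown. The 5 epithelial markers with rows of their own summed to 85.5 to 112 FPKM with overexpression and 94.4 to 110 FPKM with vector. Of these, KRT18 stood at 62.48 to 86.92 FPKM in the overexpression and 90.93 to 105.38 in the vector libraries, while EPCAM and CDH1 did not exceed 0.14 FPKM. KRT19 was at 22.89 to 25.02 FPKM in the overexpression and 2.22 to 5.92 in the vector libraries. The summed fibroblast markers, nearly all COL3A1, ranged from 174 to 198 FPKM with overexpression and from 189 to 205 FPKM with vector, with DCN and PDGFRB at or near 0. What part such differences have in the SR values was not tested. All 6 libraries are bulk RNA of the same cell line, in which fewer expressing cells cannot be told apart from less RNA per cell. Immune markers with rows of their own (including PTPRC and CD3E) were listed at 0 throughout. LINC00901 has 0 rows, so its level was not analysed here.

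The windows around the starts of SRSF1, SRSF3 and SRSF10 are shown because these members stand together at the low end, with SRSF9, the higher paralogue of SRSF1, beside them. They come from RefSeq (GRCh38.p14), each with 250 bases before and 50 after the start, and matched 9 of the 10 members (all but SRSF2), SRSF7 and SRSF11 with 2 windows each. Capitals mark matches to any of 7 motifs searched on both strands: CCAAT, the GC box GGGCGG, the TATA box TATAAA, the E-box CACGTG, the cAMP response element TGACGTCA, the AP-1 site TGANTCA and the ETS core CCGGAAG. SRSF1 lies at chr17:58007197-58007496 on the minus strand, SRSF3 at chr6:36594112-36594411 on the plus strand, SRSF10 at chr1:23980278-23980577 on the minus strand and SRSF9 at chr12:120469699-120469998 on the minus strand.
SRSF1: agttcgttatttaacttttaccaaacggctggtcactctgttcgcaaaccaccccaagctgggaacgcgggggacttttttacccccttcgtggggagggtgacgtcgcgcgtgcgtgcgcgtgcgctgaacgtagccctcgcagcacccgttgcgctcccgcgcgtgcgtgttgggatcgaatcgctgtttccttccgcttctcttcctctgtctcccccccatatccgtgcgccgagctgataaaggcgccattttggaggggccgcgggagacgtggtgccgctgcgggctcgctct
SRSF3: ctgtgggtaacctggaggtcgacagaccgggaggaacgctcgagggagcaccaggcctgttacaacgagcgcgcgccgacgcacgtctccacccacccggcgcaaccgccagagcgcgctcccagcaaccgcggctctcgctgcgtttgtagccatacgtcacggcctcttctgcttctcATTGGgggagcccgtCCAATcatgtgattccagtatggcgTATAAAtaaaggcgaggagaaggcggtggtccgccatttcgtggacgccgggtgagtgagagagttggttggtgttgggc
SRSF10: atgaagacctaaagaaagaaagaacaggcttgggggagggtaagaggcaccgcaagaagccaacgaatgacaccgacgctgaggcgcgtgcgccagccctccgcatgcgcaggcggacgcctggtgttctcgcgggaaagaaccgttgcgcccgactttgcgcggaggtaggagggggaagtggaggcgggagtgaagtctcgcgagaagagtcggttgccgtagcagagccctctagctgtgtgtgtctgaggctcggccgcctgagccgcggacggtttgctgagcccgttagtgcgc
SRSF9: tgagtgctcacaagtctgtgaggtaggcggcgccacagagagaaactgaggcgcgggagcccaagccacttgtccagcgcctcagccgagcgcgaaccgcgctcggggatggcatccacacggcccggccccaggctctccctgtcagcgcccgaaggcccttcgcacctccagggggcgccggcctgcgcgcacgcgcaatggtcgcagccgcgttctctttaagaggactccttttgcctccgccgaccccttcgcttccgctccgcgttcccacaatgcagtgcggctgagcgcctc

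The 4 windows hold 35, 30, 30 and 33 CG dinucleotides in 300 bases for SRSF1, SRSF3, SRSF10 and SRSF9. Windows of the other matched members hold from 17 in SRSF7 to 48 in SRSF4, and CG dinucleotides were not counted over all windows. SRSF3 was the only one of the 4 shown with a motif match: a CCAAT on each strand and, downstream, a TATAAA. Of all 35116 windows, 34.6% hold CCAAT and 11.5% hold TATAAA. The SRSF1, SRSF10 and SRSF9 windows hold none of the 7 motifs. Among the 9 matched members, 4 hold a GC box and 2 an ETS core, against 45.0% and 10.3% of all windows. Of the motifs in the SRSF3 window, the one on both strands was found in SRSF3 alone. The downstream one was found in 3 of these members: SRSF3, SRSF7 and SRSF11. Members count if any of their windows match, while the shares are per window, so SRSF7 and SRSF11 had 2 chances each. The E-box, the cAMP response element and the AP-1 site were found in 0 members and in 7.3%, 1.8% and 7.7% of all windows. These are letter matches and say nothing about binding.

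SRSF3 and SRSF7 are small paralogous members that act as adapters for the mRNA export receptor NXF1. SRSF3 measured 21.74, 20.83 and 24.31 FPKM in the overexpression libraries and at 54.07, 64.14 and 62.50 FPKM in the vector libraries. The groups were far apart, and the replicates of each group varied by under 10% of their mean. The group means were 22.3 ± 1.80 against 60.2 ± 5.40 FPKM (SD, n = 3 each), 2.70-fold lower with overexpression, a log2 difference of -1.41 (SE 0.0982). Relative to the median gene the SRSF3 difference was -1.68, and with every library brought to the same FPKM sum it was -1.95. SRSF7 had 23.35, 23.88 and 22.05 FPKM in the overexpression libraries and at 19.23, 16.89 and 21.19 FPKM in the vector libraries. The SRSF7 groups did not overlap, but came within 1 FPKM of each other. Its log2 difference was 0.27 (SE 0.101), 0.01 relative to the median gene, and its sign depended on the scaling: it was -0.26 with the same FPKM sum and -0.20 with quantile normalization. Of all fits, SRSF7 was called in the one without vector replicate 3. The SRSF3 to SRSF7 ratio, which needs no scaling between libraries, averaged 0.969 ± 0.120 with overexpression and 3.19 ± 0.534 with vector (SD, n = 3 each). In overexpression cells the pair thus had nearly equal levels, and in vector cells SRSF3 stood well above its paralogue in every library.

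SRSF1, the founding SR protein and a known oncogenic splicing factor, and SRSF9 are paralogues, each with a canonical and an atypical RNA recognition motif. SRSF1 measured 14.03, 7.94 and 11.80 FPKM in the overexpression libraries and at 28.38, 38.83 and 31.69 FPKM in the vector libraries. Every overexpression value was at most about 14 FPKM, under every vector value, with overexpression replicate 2 the lowest. The means were 11.3 ± 3.08 and 33.0 ± 5.34 FPKM (SD, n = 3 each), 2.93-fold lower with overexpression, a log2 difference of -1.53 (SE 0.214). Leaving out single libraries gave differences from -1.70 to -1.31. SRSF9 measured 28.77, 31.50 and 28.03 FPKM in the overexpression libraries and at 18.82, 17.41 and 20.62 FPKM in the vector libraries. All its overexpression values lay above all its vector values, and replicates were close together. The SRSF9 log2 difference was 0.62 (SE 0.0932), or 0.36 relative to the median gene and 0.09 with the same FPKM sum. Its limma call was lost with the same FPKM sum, with quantile normalization and with the length and GC correction. The SRSF1 to SRSF9 ratio was 0.488, 0.252 and 0.421 with overexpression and 1.51, 2.23 and 1.54 with vector, so the order of the paralogues was opposite in the groups. GATC overlaps SRSF9 on the opposite strand in GENCODE 29 and is held in the joined row COX6A1;GATC;AL021546, which averaged 24.3 FPKM with overexpression and 15.8 FPKM with vector, so that no level of GATC alone can be given. Whether counting used the strand is not given in the sources used here, so reads of SRSF9 and GATC cannot be told apart where they overlap. SRSF1 is overlapped by AC015813.2, a protein-coding gene on the same strand, and by AC015813.5 on the opposite strand, both with 0 rows. Whether they share reads with SRSF1 was not tested.

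SRSF2, also called SC35, is a nuclear speckle protein that stays in the nucleus and is often mutated in myeloid neoplasms. It measured 22.34, 24.88 and 27.70 FPKM in the overexpression libraries and at 7.52, 7.67 and 5.10 FPKM in the vector libraries. No overexpression value was below 22 FPKM, and no vector value reached 8. The means were 25.0 ± 2.68 and 6.76 ± 1.44 FPKM (SD, n = 3 each), 3.69-fold higher with overexpression, a log2 difference of 1.83 (SE 0.168). The SRSF2 difference was 1.56 relative to the median gene, 1.52 with the length and GC correction, 1.45 with quantile normalization and 1.30 with the same FPKM sum. MFSD11, a membrane transporter family gene, overlaps SRSF2 on the opposite strand in GENCODE 29 and is held in the joined row METTL23;MFSD11;AC005837, which averaged 3.75 FPKM with overexpression and 4.05 FPKM with vector. AC005837.2, a protein-coding gene on the opposite strand, and MIR636 on the same strand also overlap SRSF2, with 0 rows under these names. Since strand use in counting is not given, reads of SRSF2 and these genes cannot be told apart where they overlap. SRSF8, an expressed retrogene copy of SRSF2 that was not among the members, stood at 4.78, 4.78 and 4.72 FPKM in the overexpression and 5.09, 6.03 and 5.21 FPKM in the vector libraries. Its log2 difference was -0.17 (SE 0.104, limma adjusted p = 0.205). How far the authors' counting splits reads between SRSF2 and SRSF8 was not tested.

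**Figure D1:**
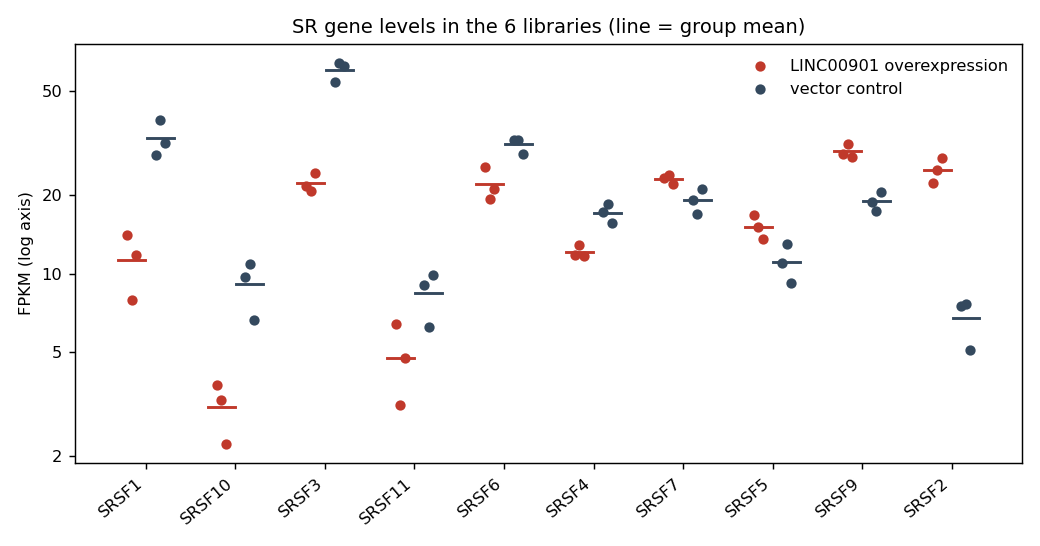
FPKM of the 10 SR genes on a log axis, 3 LINC00901 overexpression libraries left of 3 vector control libraries for each gene, with a line at each group mean. Genes are ordered by their log2 difference; SRSF11 alone has overlapping groups, and SRSF2 stands at 22.34 to 27.70 against 5.10 to 7.67 FPKM.

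SRSF10 is a splicing factor that acts as a repressor when dephosphorylated, for example after heat shock. It measured 3.75, 3.28 and 2.23 FPKM in the overexpression libraries and at 9.73, 10.91 and 6.65 FPKM in the vector libraries. The groups were separate, although vector replicate 3 was lower than the other two. The means were 3.09 ± 0.778 and 9.10 ± 2.20 FPKM (SD, n = 3 each), 2.95-fold lower with overexpression. On log2(FPKM + 0.5) the difference was -1.42 (SE 0.230). With 0.1 or 1 added in place of 0.5, the SRSF10 difference was -1.53 or -1.3. SRSF12, its close relative, lay below the filter at 0.15, 0.05 and 0.09 FPKM in the overexpression and 0.12, 0.17 and 0.23 FPKM in the vector libraries, and these overlap. SRSF11, a more distant family member, measured 6.42, 3.13 and 4.76 FPKM in the overexpression libraries and at 9.07, 6.26 and 9.87 FPKM in the vector libraries. It was the only member whose groups overlapped, since overexpression replicate 1 exceeded vector replicate 2. Its log2 difference was -0.78 (SE 0.265), ranging from -1.0 to -0.54 as single libraries were left out. The limma call of SRSF11 was lost without overexpression replicate 2 or 3 and without vector replicate 1 or 3. AL353771.1, an antisense gene with 0 rows, overlaps SRSF11 on the opposite strand, and shared reads were not tested.

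SRSF4, SRSF5 and SRSF6 form the subgroup with long arginine-serine tails. SRSF4 measured 11.75, 12.83 and 11.66 FPKM in the overexpression libraries and at 17.22, 18.54 and 15.64 FPKM in the vector libraries. SRSF6, which regulates splicing in wound healing and skin tumours in the mouse, stood at 25.66, 19.34 and 21.16 FPKM in the overexpression and 32.53, 32.64 and 28.78 FPKM in the vector libraries. Both were lower in every overexpression library than in any vector library, by nearly the same amount: the log2 differences were -0.49 (SE 0.0958) for SRSF4 and -0.50 (SE 0.120) for SRSF6. Their ratio, SRSF4 over SRSF6, averaged 0.557 ± 0.103 with overexpression and 0.547 ± 0.0196 with vector (SD, n = 3 each), a gap well within the spread of replicates. SRSF5 stood at 16.76, 15.09 and 13.59 FPKM in the overexpression and 10.98, 13.00 and 9.25 FPKM in the vector libraries. Its groups were separate but close. The SRSF5 log2 difference was 0.44 (SE 0.143), 0.18 relative to the median gene and -0.08 with the same FPKM sum, so its sign depended on the scaling. The limma call of SRSF5 was lost when any overexpression library, vector replicate 1 or vector replicate 3 was left out. SRSF5 over SRSF6 averaged 0.692 ± 0.0767 with overexpression and 0.352 ± 0.0405 with vector (SD, n = 3 each), so SRSF5 was higher relative to SRSF6 in every overexpression library.

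**Figure D2:**
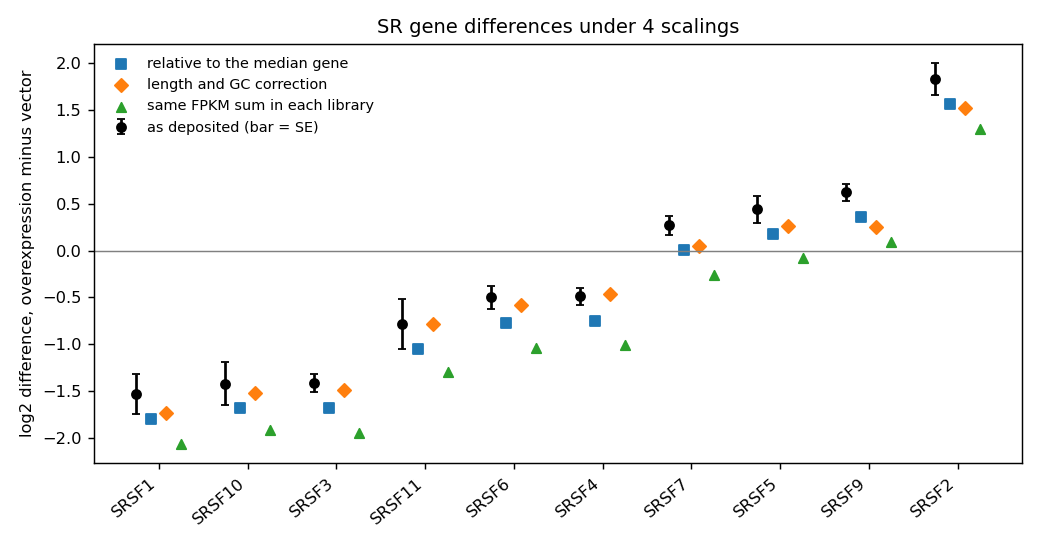
Log2 difference (overexpression minus vector) of each SR gene under 4 scalings, with SE bars on the values as deposited. SRSF1, SRSF3, SRSF10, SRSF11, SRSF4 and SRSF6 lie below 0 and SRSF2 and SRSF9 above 0 under all 4 scalings; SRSF5 and SRSF7 turn negative with the same FPKM sum.

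The libraries of 9 members did not overlap between groups, 5 of them lower and 4 higher with overexpression. Of all tested genes 60.6% had groups that did not overlap, 15.6% lower and 44.9% higher. Of the tested genes, 0.732% had a lower log2 difference than SRSF1, 1.07% a lower one than SRSF10 and 1.10% a lower one than SRSF3, while 98.8% had a lower one than SRSF2. SRSF7 sat at the middle of all genes, with 50.4% below it.

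**Figure D3:**
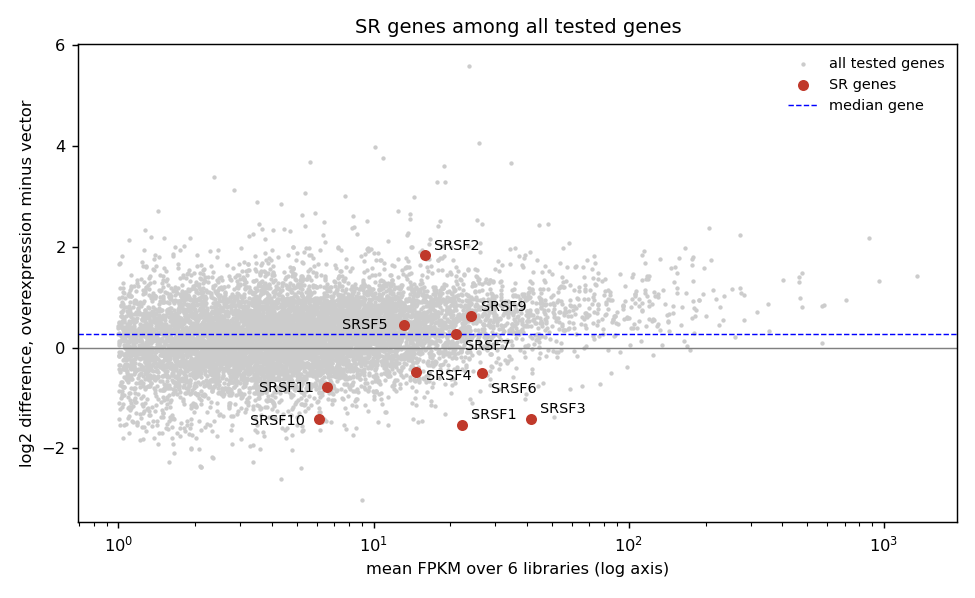
Mean FPKM over the 6 libraries (log axis) against the log2 difference (overexpression minus vector) for 9694 tested genes in grey and the 10 SR genes in red, with the median gene as a dashed line at 0.27. SRSF1, SRSF3 and SRSF10 lie near the lower edge of the cloud and SRSF2 near the upper edge.

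The summed FPKM of the 10 genes was 174.6, 162.7 and 167.3 in the overexpression libraries and 207.5, 226.3 and 211.3 in the vector libraries. As a share of all FPKM in a library, it was 0.131% ± 0.00451 with overexpression and 0.245% ± 0.0124 with vector (SD, n = 3 each). That share also carries the larger FPKM total of the overexpression libraries. The SR sum averaged 168 FPKM with overexpression and 215 with vector, and all rows summed to 128207 and 87696 FPKM on average. Make-up of this pool differed as well. SRSF3 took 13.3% ± 1.11 of it with overexpression and 28.0% ± 1.79 with vector, and SRSF1 took 6.66% ± 1.62 and 15.3% ± 1.76 (SD, n = 3 each). SRSF2 took 14.9% ± 1.91 with overexpression and 3.14% ± 0.642 with vector, and SRSF9 took 17.5% ± 1.59 and 8.84% ± 1.05 (SD, n = 3 each). Together SRSF1, SRSF3 and SRSF10, grouped after their values were seen, held 22.6%, 19.7% and 22.9% of the pool in the overexpression libraries and 44.4%, 50.3% and 47.7% in the vector libraries. SRSF4 held 7.20% ± 0.610 and 7.96% ± 0.489, and SRSF6 13.1% ± 1.45 and 14.6% ± 1.03 with overexpression and vector (SD, n = 3 each), differences of -0.769 and -1.49 percentage points, about the size of the SD among replicates. Shares are per length, so they rank transcripts rather than reads.

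**Figure D4:**
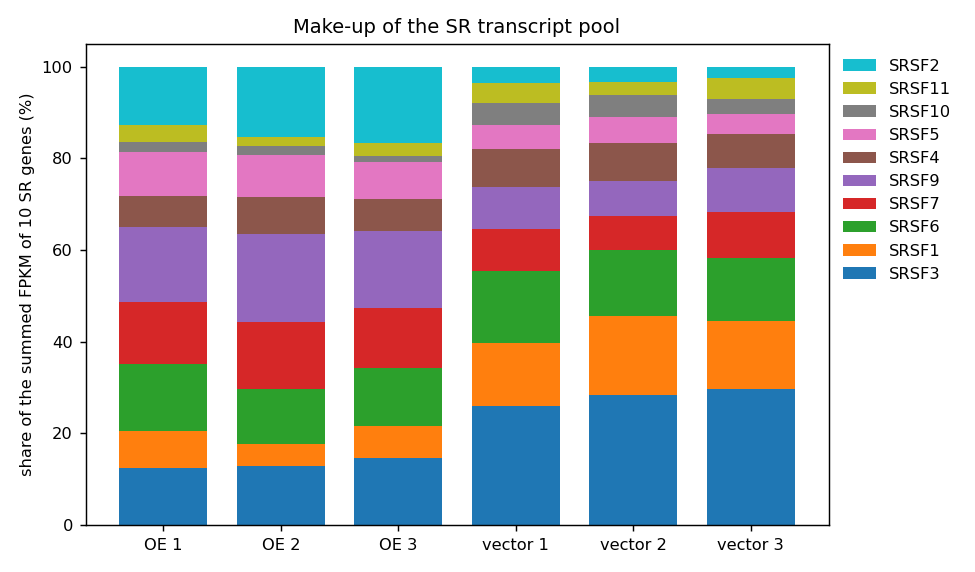
Share of the summed FPKM of 10 SR genes held by each gene (%), as stacked bars for the 3 overexpression libraries left of the 3 vector libraries. SRSF3 and SRSF1 narrow and SRSF2 and SRSF9 widen in all overexpression bars relative to the vector bars.

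The order of levels within the family differed between the groups. In overexpression cells SRSF9 led, above 92.6% of tested genes, without overlap with the next gene. In vector cells SRSF9 stood above 91.6% of tested genes. SRSF2, SRSF7, SRSF3 and SRSF6 followed, each overlapping its neighbour, then SRSF5, and then SRSF4 and SRSF1 together. SRSF11 and SRSF10 were lowest and overlapped. In vector cells SRSF3 led, above 98.3% of tested genes (89.4% in overexpression cells) and clear of SRSF1 in all libraries. SRSF1 and SRSF6 followed with overlapping values. SRSF7, SRSF9 and SRSF4 came next, each overlapping its neighbour, and SRSF5, SRSF10, SRSF11 and SRSF2 formed an overlapping low end. SRSF2 thus stood at rank 2 of 10 with overexpression and at rank 10 of 10 with vector, and SRSF1 at rank 8 with overexpression and rank 2 with vector. Replicate spread was uneven: the coefficient of variation in the overexpression libraries ranged from 4.08% for SRSF7 to 34.5% for SRSF11, and in the vector libraries from 7.02% for SRSF6 to 24.2% for SRSF10.

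Annotation of the genes in GENCODE 29 shows what the members share besides their protein domains. All 10 have at least 1 transcript annotated as a target of nonsense-mediated decay, from 1 in SRSF5, SRSF6 and SRSF9 to 6 in SRSF7, against 35.7% of 19936 protein-coding genes. A retained-intron transcript is annotated for 8 of the 10, against 46.2% of protein-coding genes. Genes with more annotated transcripts have more chances to hold either kind, and isoform values were not analysed here. The longest annotated transcript ran from 1704 bases for SRSF9 to 8128 for SRSF4. With the values as deposited it split the members by sign: 1704 to 3044 bases in the 4 above 0, and 3117 to 8128 bases in the 6 below 0. That split was seen after the differences were known. It did not hold with the same FPKM sum, where SRSF5 was at -0.08 and SRSF7 at -0.26. What part length has in the differences was not tested. With a trend on length and GC content removed, the log2 differences were -1.73 for SRSF1, -1.49 for SRSF3, -1.52 for SRSF10 and 1.52 for SRSF2. They were -0.78 for SRSF11, -0.58 for SRSF6 and -0.46 for SRSF4. SRSF5, SRSF9 and SRSF7 came to 0.26, 0.25 and 0.05, and these were not called. SRSF1, SRSF9 and SRSF10 each have 1 annotated pseudogene that carries their name, with 0 rows in the table. Whether reads were shared with these copies was not tested.

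SR proteins need kinases and carriers, which were taken as a list of their own. Of all tested genes 37.4% were called higher and 11.9% lower, the shares against which the counts of this and the following lists are to be read. Under other scalings the shares were 11.9% higher and 34.5% lower with the same FPKM sum, 24.0% higher and 19.2% lower with median centring, and 19.6% higher and 19.8% lower with the trend on length and GC content removed. Of 11 tested genes for SR protein kinases and transport, 1 was higher, 3 were lower and 7 did not pass (limma, adjusted p under 0.05), with a median log2 difference of -0.01. SRPK1, the main cytoplasmic SR kinase, stood at 28.69, 26.91 and 26.45 FPKM in the overexpression and 26.74, 27.30 and 28.71 FPKM in the vector libraries (limma adjusted p = 0.904; chosen after its values were seen). DYRK1A, a kinase that can phosphorylate splicing factors, fell to 2.40 ± 0.253 FPKM with overexpression, against 4.59 ± 0.139 FPKM with vector (SD, n = 3 each), a log2 difference of -0.82 (limma adjusted p = 0.00143). PRPF4B, a spliceosomal kinase, fell by 0.57 (limma adjusted p = 0.0157). CLK4, a kinase of the nuclear speckle, fell by 0.68 (limma adjusted p = 0.0337), a call lost in 5 of the 6 fits that left out a library, with adjusted p from 0.0530 to 0.101 in those. TNPO3, the importin that carries SR proteins into the nucleus, was higher by 0.31 (limma adjusted p = 0.0206), but by -0.22 with the same FPKM sum and -0.18 with quantile normalization, so its direction depends on the scaling. The TNPO3 call was also lost without overexpression replicate 2 (limma adjusted p = 0.0501) or 3 (0.0686), and with median centring (log2 difference 0.10) and the length and GC correction (0.09). With the same FPKM sum 0 of the list were higher and 8 lower, and with median centring 0 and 4. Without overexpression replicate 2 or 3, 2 of the list were called in place of 4.

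Of 28 tested genes for other proteins with arginine-serine domains, 5 were higher, 5 lower and 18 did not pass, against 37.4% higher and 11.9% lower over all tested genes, with a median log2 difference of -0.03. PNN, a desmosome- and speckle-associated splicing protein, rose to 5.82, 6.98 and 5.35 FPKM with overexpression, against 0.81, 1.88 and 1.87 FPKM with vector, a log2 difference of 1.74 (limma adjusted p = 0.00172). THRAP3, a splicing and mRNA export factor, rose by 1.05 (limma adjusted p = 0.00716), and by 0.52 with the same FPKM sum, where it did not pass (0.0859), as with quantile normalization (0.0649). CCNL2, a cyclin of the speckle, fell to 3.39, 4.80 and 4.34 FPKM with overexpression, against 8.77, 8.42 and 11.59 FPKM with vector, a log2 difference of -1.11 (limma adjusted p = 0.00215). RBM39, a U2AF-related splicing factor, fell to 7.57 ± 0.717 FPKM, against 15.3 ± 0.175 FPKM with vector (SD, n = 3 each; log2 difference -0.97, limma adjusted p = 0.000433). With the same FPKM sum the list had 1 higher and 13 lower, and after removal of the length and GC trend 3 higher and 8 lower.

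Nonsense-mediated decay and exon junction genes, which dispose of the poison-exon transcripts of SR genes, had 5 of 15 tested higher and 0 lower, against 37.4% and 11.9% over all tested genes. Their median log2 difference was 0.26, next to 0.27 for all tested genes. MAGOH, a core subunit of the exon junction complex, rose to 13.5 ± 1.11 FPKM with overexpression, against 8.82 ± 0.777 FPKM with vector (SD, n = 3 each; log2 difference 0.58, limma adjusted p = 0.00441). The joined row SMG8;PRR11;AC099850, which holds a decay kinase subunit, rose by 0.47 (limma adjusted p = 0.0117). These directions depend on the scaling: MAGOH was at -0.11 with the length and GC correction, and the SMG8 row was at -0.05 with the same FPKM sum. The MAGOH call was also lost with quantile normalization (limma adjusted p = 0.119) and the same FPKM sum (0.676), and that of the SMG8 row with median centring (0.0822), the length and GC correction (0.192) and quantile normalization (0.314). The list had 1 higher and 1 lower after median centring, and 0 higher and 5 lower with the same FPKM sum.

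The hnRNP proteins, which often oppose SR proteins at exons, had 9 of 21 tested higher, 2 lower and 10 that did not pass, against 37.4% and 11.9% over all tested genes, with a median log2 difference of 0.35. HNRNPA1, a known antagonist of SRSF1 in splice site choice, rose to 63.19, 55.40 and 60.06 FPKM with overexpression, against 20.79, 24.81 and 26.62 FPKM with vector. Its log2 difference was 1.29 (SE 0.109, limma adjusted p = 0.000247), and 0.75 with the same FPKM sum. HNRNPUL1 rose by 1.06 (limma adjusted p = 0.000188), and by 0.52 with the same FPKM sum. RPL36A-HNRNPH2;RPL36A;HNRNPH2 rose by 1.14 (limma adjusted p = 0.000187), in a joined row that also holds a ribosomal protein gene. The difference of that row was 0.60 with the same FPKM sum and 0.30 with the length and GC correction. HNRNPA3 rose by 1.26 (limma adjusted p = 0.0285), with 24.67, 29.11 and 33.61 FPKM in the overexpression libraries and 9.41, 7.59 and 22.55 FPKM in the vector libraries. The HNRNPA3 call was lost when any of the other 5 libraries was left out (limma adjusted p from 0.0523 to 0.0830). It was also lost with median centring (0.055), quantile normalization (0.143) and the same FPKM sum (0.147), and its log2 difference was 1.72 without vector replicate 3. With the same FPKM sum the list had 3 higher and 8 lower, and after median centring 6 and 4.

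**Figure D5:**
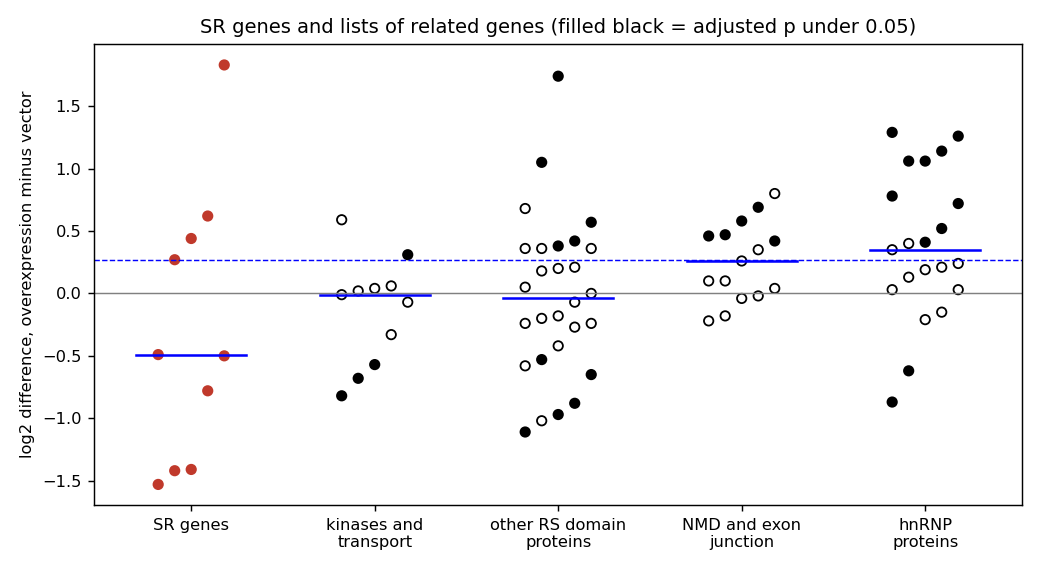
Log2 difference (overexpression minus vector) of the SR genes in red and of the tested genes of 4 related lists, filled black where the limma adjusted p was under 0.05 and open otherwise; solid lines are medians and the dashed line the median gene at 0.27. The SR genes spread from -1.53 to 1.83 with a median of -0.49, and the medians of the lists lie between -0.03 and 0.35.

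The mean gene-centred profile of the 10 members over the 6 libraries was -0.03, -0.24 and -0.18 log2 in the overexpression and 0.16, 0.20 and 0.08 in the vector libraries. The 5 genes nearest to it by root mean square difference were PTRH2, RICTOR, MON2, the joined row FNIP1;RAPGEF6;AC008695 and PRIM2, at distances of 0.0264 to 0.0369 log2 over 6 libraries. Since members had differences of both signs, this average stands for no single one of them.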

How the data were processed

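The authors deposited 1 table of FPKM values, 1 per gene and library, with 6 columns that were matched to the samples by name. The submitters' processing notes name hg19, HISAT2, FastQC and cutadapt. For their versions, the annotation and the tool behind the FPKM values, the entry is: not given in the sources used here. Of the 18268 rows, 990 join several names and 3750 are listed at 0 in all libraries, among them all 13 mitochondrial rows. Of the ratios between low values, 10.1% in the overexpression and 12.2% in the vector libraries lay within 0.1 log2 of a power of 2. Whole reads also give other ratios and the values are rounded, so this cannot show whether whole-read steps are present. Depth is unknown, and no count model was used.

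Values were compared on log2(FPKM + 0.5) in R 4.3.3 by limma 3.58.1 with a trend on intensity, for rows with a mean of at least 1 FPKM, overexpression minus vector, and Benjamini-Hochberg adjustment over all 9694 tested rows. It was also tested on simulated data. Members and gene lists were chosen with earlier results of these data known. Named genes are the members, SRSF8 and SRSF12, up to 4 genes of each list past the threshold without overlap, by size of difference, and the 5 nearest profiles. Items that this rule takes but that are missing from the text are not reported here. MALAT1 and NEAT1, also planned, have 0 rows. Alternatives were other pseudocounts, filters, scalings and variance models, a replicate block, single libraries left out, joined rows left out, and a correction for length and GC content (GENCODE 29 by symbol, another build, known for 99.6% of tested rows). Other steps used Python 3.11.15, pandas 2.3.3, numpy 2.4.6 and matplotlib 3.10.9.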

Additional observations from a re-analysis of the deposited data

How the results depend on the processing

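The signs of 8 SR genes held under all 18 alternatives; SRSF5 turned to -0.08 with the same FPKM sum, and SRSF7 to -0.20 with quantile normalization and -0.26 with the same FPKM sum. The median log2 difference of the members, -0.49, was -0.70 with median centring, -0.96 with quantile normalization and -1.03 with the same FPKM sum, which rescale whole libraries, and -0.55 to -0.45 as single libraries were left out. Besides the calls of SRSF5, SRSF9 and SRSF11 given above, SRSF5 lost its call with median centring, the length and GC correction, quantile normalization, the same FPKM sum and no filter, and SRSF11 with no filter and without the intensity trend. Leaving out a library gave 7 to 9 members called and 3580 to 4358 genes in all. A mean of at least 5 FPKM, which tests fewer genes, called 2818 genes in place of 4773, and 2 kinase and transport genes in place of 4. That list had 8 called with the same FPKM sum and 2 to 5 without single libraries. The decay list had 2 called with median centring, 1 with quantile normalization, 1 with the length and GC correction and 3 without joined rows, in place of 5. TNPO3 turned to -0.18 with quantile normalization and -0.22 with the same FPKM sum, MAGOH to -0.11 with the length and GC correction, and SMG8;PRR11;AC099850 to -0.05 with the same FPKM sum; the cause was not tested. The SRSF3 share of the SR sum differed by -14.7 percentage points, by -15.7 to -13.9 without single libraries and by -0.0513 points as a share of all FPKM, a far larger denominator.

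Same-numbered replicates did not deviate together (correlations -0.037, -0.00574 and -0.00503 for replicates 1, 2 and 3). This shows no pairing by number in the values, but cannot tell how the cultures were handled. With the replicate block 4227 genes were called in place of 4773, and the same 9 SR genes. Depth, isoforms and strand use were not part of these comparisons, and with 3 libraries a group SRSF5, SRSF7 and SRSF11 changed their call when single libraries were left out.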
